A study of Mus musculus with 15 samples.

Results

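The 10 genes described here encode 4 bone morphogenetic protein (BMP) ligands (Bmp2, Bmp4, Bmp5 and Bmp7), the secreted antagonist noggin (Nog), the inhibitory Smads Smad6 and Smad7, and the Id proteins Id1, Id2 and Id3. They were found by exact gene name in the scanner output of all 15 arrays, among 31753 gene names, and each gene was read from its probe with the highest mean processed signal. No measured difference between groups entered that choice of probe, but the 10 genes were chosen with earlier results of these data known. Of the 10 genes, 9 passed the filter on dim probes and were tested, and Bmp5 did not.

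The samples were mouse embryonic stem (ES) cells, a cell type taken from the inner cell mass of the early embryo. Each array was an Agilent 1-colour array that gives the brightness of every probe for the Cy3-labelled total RNA of 1 sample. The cells carried the hairpin RNA shCTR or the hairpin RNA sh4, and were untreated or had been given 1 µM retinoic acid (RA) for 72 h, a treatment that drives ES cells to differentiate. The 4 groups are shCTR (4 arrays), sh4 (4 arrays), shCTR 72 RA (4 arrays) and sh4 72 RA (3 arrays, numbered 1, 3 and 4). The labels call the samples biological replicates but name no cell line, clone, vector or separate culture, and they do not say what sh4 targets. The series title names Phf19, a Polycomb-associated protein, and the comparisons below ask how the BMP genes differed with the hairpin and with RA. Since separate cultures are not stated, a p-value here measures the spread among these samples, which may be technical. No treatment time is given for untreated cells, so RA and time in culture cannot be told apart.

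BMP ligands are secreted dimers that bind type I and type II receptor kinases. The receptors phosphorylate Smad1, Smad5 and Smad9, which enter the nucleus with Smad4 and bind DNA. Id1, Id2 and Id3 are among the best known direct targets, and Smad6 and Smad7 are induced by the pathway and dampen it. Id proteins lack a DNA-binding region and hold E proteins, their partners, off DNA. In mouse ES cells, BMP acting through Id genes supports self-renewal together with LIF. In the early embryo, BMP from the extraembryonic tissues patterns the epiblast.

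Each level below is a log2 level: log2 of the processed intensity minus the 75th percentile of the same array, so 0 is as bright as that percentile. Changes are differences of these levels, with the standard error (SE) of the fit, and adjusted p-values come from limma's moderated test over 25090 genes with Benjamini-Hochberg adjustment and a threshold of 0.05. "Rose" and "fell" are used only for changes past that threshold. Levels of different probes are not compared.

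The 75th percentile ranged from 1509 to 1911 intensity units over the 15 arrays, and 74.4% to 80.0% of spots were well above background. The arrays lay on 4 slides, each scanned in 1 session per the file headers, and every slide but the fourth held all 4 groups; the fourth held no sh4 72 RA array. The scanner software rated 3 arrays for evaluation: sh4 72 RA replicate 1, sh4 replicate 3 and shCTR replicate 2. Phf19 was lower in sh4 on every array, with log2 levels of -2.61 to -2.51 against -0.98 to -0.69 in shCTR, and -3.97 to -3.71 against -3.06 to -2.80 with RA. All 10 ES cell markers were detected on all arrays, Pou5f1, Nanog and Sox2 included. Their summed level was 30415% to 33840% of the 75th percentile in shCTR, 23541% to 24739% in sh4, 3533% to 3780% in shCTR 72 RA and 2361% to 3028% in sh4 72 RA. These are bulk samples, so fewer cells of a type and less RNA per cell cannot be told apart.

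Promoter sequences are shown for target genes that rose together with RA, since Smads and the retinoic acid receptor act on DNA. The RefSeq promoter table (GRCm38.p6), 250 bases before to 50 bases after each start, held 5 of the 10 genes: Bmp4, Bmp5, Id2, Id3 and Smad6. The windows were searched on both strands for GGCGCC, a GC-rich element bound by Smad1 and Smad5, for GTCT or AGAC, the element bound by Smad4, for its palindrome GTCTAGAC, which contains both of the former, and for AGGTCA or TGACCT, the repeat unit of retinoic acid receptor sites. The Id2 stretch lies at chr12:25096093-25096342 on the minus strand, ends at the base before the start, and has its GGCGCC in capitals. The Id3 stretch lies at chr4:136143572-136143821 on the plus strand, ends likewise, and has GTCT and AGAC in capitals. The Smad6 stretch lies at chr9:64022030-64022209 on the minus strand, from 150 bases before to 30 bases after the start, and has GTCTAGAC in capitals.
Id2: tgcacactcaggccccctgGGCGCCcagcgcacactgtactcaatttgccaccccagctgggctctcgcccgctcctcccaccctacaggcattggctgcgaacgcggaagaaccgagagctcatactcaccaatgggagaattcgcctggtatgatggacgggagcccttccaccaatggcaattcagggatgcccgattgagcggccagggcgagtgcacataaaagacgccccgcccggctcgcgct
Id3: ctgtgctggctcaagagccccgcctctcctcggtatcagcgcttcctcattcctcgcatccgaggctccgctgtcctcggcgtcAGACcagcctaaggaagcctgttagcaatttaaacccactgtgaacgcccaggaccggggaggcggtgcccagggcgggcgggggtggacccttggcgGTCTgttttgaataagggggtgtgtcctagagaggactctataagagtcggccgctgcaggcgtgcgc
Smad6: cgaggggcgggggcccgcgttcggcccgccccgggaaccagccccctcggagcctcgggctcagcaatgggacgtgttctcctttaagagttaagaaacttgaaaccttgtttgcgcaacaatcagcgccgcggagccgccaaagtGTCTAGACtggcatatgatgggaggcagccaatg

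GGCGCC was found in the Id2 window alone of the 5, at position -231 from the start, and in 11.9% of all 32851 windows of 300 bases. GTCTAGAC was found in the Smad6 window alone of the 5, at position -4, and in 0.213% of all windows. The 4-letter GTCT or AGAC was in each of the 5 windows, but also in 88% of all windows. AGGTCA or TGACCT was in none of the 5 and in 16.3% of all windows. GC content was 64% for Bmp4, 43.3% for Bmp5, 63.3% for Id2, 60% for Id3 and 66.3% for Smad6, against a median of 52.7% over all windows, and a GC-rich window holds a GC-rich motif more often. These matches are letters in a window and do not show binding. Sequence outside the windows was not searched, so a missing motif does not show that a gene lacks such a site.

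The probes are 60 bases long and their positions are those of the array design on mouse build mm9. Exon and UTR annotation on that build was not used here. Bmp2 was read at chr2:133388260-133388319 (plus strand), Bmp4 at chr14:47003391-47003450 (minus), Bmp5 at chr9:75746444-75746503 (plus) and Bmp7 at chr2:172695203-172695262 (minus). Id1 was read at chr2:152563083-152563142 (plus), Id2 at chr12:25778904-25778963 (minus), Smad6 at chr9:63800980-63801039 (minus) and Nog at chr11:89162849-89162908 (minus). The Id3 probe covers chr4:135700075-135700249 (plus), 175 bases for a 60-base probe, so its sequence is joined across a gap in the genome and reads spliced RNA. It is shown with the Nog probe, whose values varied most within groups.
Id3 probe: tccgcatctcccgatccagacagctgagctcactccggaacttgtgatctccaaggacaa
Nog probe: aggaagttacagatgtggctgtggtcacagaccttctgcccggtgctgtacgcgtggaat

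**Figure D1:**
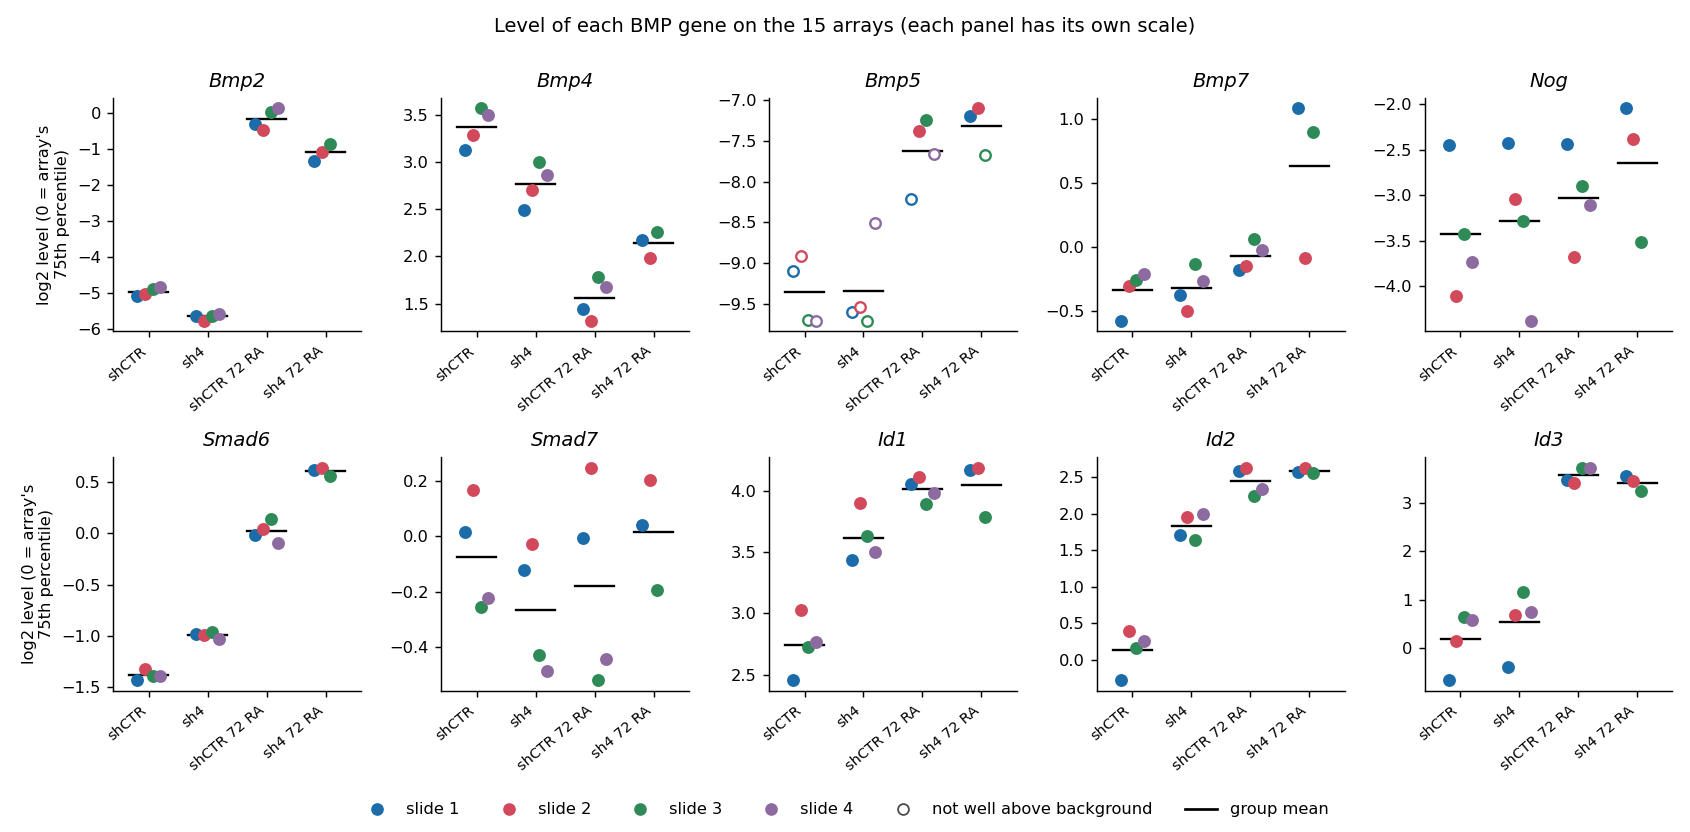
log2 level of each of the 10 genes on each array (vertical axis, 0 is the array's 75th percentile, each panel on its own scale) in the 4 groups, with points coloured by slide, open where the probe was not well above background, and a line at the group mean. Bmp2 lies near -5 without RA and near 0 with it, Bmp4 is highest in shCTR, Id1 and Id2 form steps from shCTR through sh4 to the RA groups, and Bmp5 is mostly open.

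Among the ligands, Bmp2 showed the largest change of the 9 tested genes. Bmp2 is made by the visceral endoderm and heart-forming mesoderm of the embryo. Its log2 level in shCTR replicates 1 to 4 was -5.08, -5.04, -4.90 and -4.83, and in sh4 it was -5.63, -5.76, -5.62 and -5.57. The RA arrays of shCTR read -0.32, -0.49, 0.03 and 0.12, and those of sh4, replicates 1, 3 and 4 here and below, read -1.33, -1.10 and -0.88. The 4 groups did not overlap: both RA groups lay far above both untreated groups, and sh4 lay below shCTR in either condition. RA raised Bmp2 by 4.80 ± 0.13 (SE) in shCTR, 27.8-fold (adjusted p = 1.85e-12, limma), and by 4.54 ± 0.14 in sh4, 23.3-fold (adjusted p = 1.1e-11).

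The hairpin difference of Bmp2 was a fall in both conditions. It fell by 0.68 ± 0.13 (SE) on the log2 scale in untreated cells, to 62.2% of shCTR (adjusted p = 0.00142), and by 0.94 ± 0.14 with RA, to 52.2% (adjusted p = 0.000373). Within slides the difference ran from -0.74 to -0.55 untreated (4 slides) and from -1.02 to -0.61 with RA (3 slides). The difference between those hairpin effects was -0.25 (95% interval -0.68 to 0.17, adjusted p = 0.47), and it was -0.48 with normexp correction and -0.59 in the authors' log2 values (adjusted p = 0.234 and 0.0644). The Bmp2 probe was dim without RA, at 28.7 to 53.1 intensity units, and values there depend on the background correction. With normexp correction the untreated change was -0.38 (adjusted p = 0.121), and in the authors' log2 value table it was -0.29 (adjusted p = 0.18), so that call was lost; the RA change in shCTR was 3.58 and 3.63 under the same settings, and that in sh4 was 3.04 in the authors' values, all still past the threshold.

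Markers of primitive and visceral endoderm moved largely, but not wholly, as Bmp2 did. Of the 10 markers, 10 rose with RA in shCTR, with a median log2 change of 4.49, where 29% of all genes rose. In sh4 72 RA 10 were lower than in shCTR 72 RA, with a median of -2.43, where 10.3% of all genes were lower. With RA in sh4, 9 rose and 1 fell, where 27.1% of all genes rose and 31.6% fell. In untreated sh4 6 fell and 0 rose, where 14.1% of all genes fell and 14.4% rose. The interaction was negative for 7 and positive for 2, against 10.2% and 10.2% of all genes, while that of Bmp2 was not called. Of those 2, Sox17 (0.61) turned to -0.08 in the authors' log2 values. The summed level of the 10 markers was 111% to 124% of the 75th percentile in shCTR, 41.8% to 44.1% in sh4, 2544% to 2860% in shCTR 72 RA and 887% to 994% in sh4 72 RA. In untreated cells 7 or 8 of the 10 were detected on each array. The part of such cells in the Bmp2 result was not tested.

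Bmp4 ran the other way with RA, and its hairpin difference changed sign between conditions. Bmp4 is the ligand of the extraembryonic ectoderm and the one most used to treat ES cells. On the log2 scale the shCTR arrays read 3.13, 3.29, 3.57 and 3.50, and the sh4 arrays 2.48, 2.70, 2.99 and 2.86. After RA the shCTR arrays read 1.45, 1.32, 1.78 and 1.67, and the sh4 arrays 2.17, 1.98 and 2.26. The groups ordered as shCTR, sh4, sh4 72 RA and shCTR 72 RA without overlap, and each differed from its neighbour.

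In untreated cells Bmp4 fell by 0.61 ± 0.14 (SE) in sh4 on the log2 scale, to 65.5% of shCTR (adjusted p = 0.00417, limma). With RA it was higher in sh4 by 0.58 ± 0.15, or 150% of shCTR (adjusted p = 0.013). RA lowered it by 1.81 ± 0.14 in shCTR, to 28.4% of the untreated level, and by 0.62 ± 0.15 in sh4, to 65% (adjusted p = 5.22e-08 and 0.00251). In the authors' log2 values the latter change was -0.40 (adjusted p = 0.0427). The interaction, the hairpin effect with RA minus that without, was 1.19 (95% interval 0.75 to 1.63, adjusted p = 0.000897). On the 3 slides that hold all 4 groups it was between 1.05 and 1.37, and the hairpin difference was -0.64 to -0.57 untreated (4 slides) and 0.48 to 0.73 with RA.

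The higher Bmp4 of sh4 with RA lost its call under 3 of 26 alternatives, at a change of similar size. Its adjusted p was 0.0569 without sh4 72 RA replicate 4, 0.0577 without the 3 arrays rated for evaluation and 0.0933 with median scaling, at changes of 0.52, 0.56 and 0.61. With the slide as a block it was 0.62 (adjusted p = 0.000342). The other Bmp4 probe, at chr14:47003198-47003257 and listed for the same transcript, gave 1.64 to 2.36 intensity units and was not well above background on any array, while the probe used gave 4540 to 18735.

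Bmp7, a ligand of kidney, eye and early embryo, varied little within 3 groups and split in the fourth. Its log2 level was -0.57, -0.30, -0.25 and -0.21 in shCTR, -0.38, -0.49, -0.13 and -0.26 in sh4, and -0.18, -0.15, 0.07 and -0.02 in shCTR 72 RA. In sh4 72 RA it was 1.08, -0.08 and 0.90 for replicates 1, 3 and 4, so replicate 3 fell among the shCTR 72 RA arrays and the other two stood above every other array. In untreated cells the hairpin difference was 0.02 (95% interval -0.41 to 0.45).

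With RA, Bmp7 was higher in sh4 by 0.70 ± 0.22 (SE), 1.63-fold (adjusted p = 0.0337, limma), though the groups overlapped. Within slides 1, 2 and 3 that difference was 1.26, 0.07 and 0.83. The call was lost without sh4 72 RA replicate 1 (0.48, adjusted p = 0.178) or replicate 4 (0.57, adjusted p = 0.137), and without shCTR 72 RA replicate 1, 2 or 4 (adjusted p = 0.0786, 0.072 and 0.0586). It was also lost with median scaling (adjusted p = 0.102), with only the compared arrays in the fit (adjusted p = 0.132) and without the 3 arrays rated for evaluation (adjusted p = 0.216). Without sh4 72 RA replicate 3, the interaction of Bmp7 became 1.04 (adjusted p = 0.00075), against 0.69 (adjusted p = 0.134) on all arrays. RA raised Bmp7 by 0.95 ± 0.22 in sh4 (adjusted p = 0.00171), and in shCTR the change was 0.26 (95% interval -0.17 to 0.70). The latter passed the threshold without sh4 72 RA replicate 3 (adjusted p = 0.04) and with only the compared arrays in the fit (adjusted p = 0.0486). Every shCTR 72 RA array lay above every shCTR array, and the difference was 0.16 to 0.39 within the 4 slides.

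Bmp5, a ligand of limb and skeleton, was at the edge of detection. It was well above background on 0 of 4 shCTR arrays, 0 of 4 sh4 arrays, 2 of 4 shCTR 72 RA arrays and 2 of 3 sh4 72 RA arrays, at 1.81 to 11.8 intensity units. Taking the lowest signal well above background as the floor of each untreated array, mean Bmp5 with RA was 1.17 times that floor in shCTR. In sh4 it was 1.44 times the floor. The RA means include arrays not well above background, so these are not lower bounds on the change. The measured group means were -9.36 and -9.34 in untreated shCTR and sh4, and -7.63 and -7.32 with RA. In a fit with no filter on dim probes, both RA differences passed (adjusted p = 0.000212 and 0.000123).

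Nog, which binds BMP2, BMP4 and BMP7 outside the cell and keeps them from their receptors, was measured on all arrays but scattered widely. The log2 levels of untreated shCTR were -2.45, -4.11, -3.43 and -3.73, and those of untreated sh4 -2.42, -3.04, -3.29 and -4.38. After RA they were -2.43, -3.68, -2.90 and -3.11 for shCTR, then -2.05, -2.38 and -3.51 for sh4. In every group the array on slide 1 was the highest, and all groups overlapped. No change was called, and the intervals were wide. The untreated hairpin difference was 0.15 (95% interval -0.86 to 1.16) and the RA difference in shCTR was 0.40 (95% interval -0.61 to 1.41). Changes of either sign within those intervals were not excluded. Within slides the untreated hairpin difference ran from -0.64 to 1.07. The 4 groups could not be ordered for Nog.

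Of the inhibitory Smads, Smad6 gave the most even values of the 10 genes. Smad6 keeps BMP receptors and Smad4 from acting on Smad1 and Smad5. Untreated shCTR arrays had log2 levels of -1.43, -1.32, -1.39 and -1.39, and untreated sh4 arrays -0.99, -0.99, -0.96 and -1.03. RA arrays had -0.01, 0.04, 0.14 and -0.09 for shCTR, then 0.62, 0.64 and 0.56 for sh4. The groups rose in that order with no overlap, and each differed from its neighbour.

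Smad6 rose in sh4 by 0.39 ± 0.06 (SE) without RA, to 131% of shCTR (adjusted p = 0.000127, limma), and by 0.58 ± 0.06 with RA, to 150% (adjusted p = 1.53e-05). RA raised it by 1.40 ± 0.06 in shCTR and by 1.60 ± 0.06 in sh4 (adjusted p = 7.25e-11 and 6.58e-11). The hairpin difference was 0.33 to 0.44 within the 4 slides untreated and 0.42 to 0.63 within the 3 slides with RA. Its interaction was 0.19 (95% interval 0.02 to 0.37, adjusted p = 0.131), so the hairpin effect was not shown to differ between the conditions. The 4 called changes of Smad6 stayed past the threshold under all 26 alternatives with a test.

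Smad7, which blocks both BMP and TGF-beta receptors, stayed within a narrow range. Log2 levels of 0.02, 0.17, -0.26 and -0.22 were read in shCTR, with -0.12, -0.03, -0.43 and -0.49 for sh4. The RA arrays gave -0.01, 0.25, -0.52 and -0.44 for shCTR, then 0.04, 0.20 and -0.19 for sh4, which lay on slides 1, 2 and 3. The arrays split by slide rather than by group: in every group those on slides 1 and 2 lay above those on slides 3 and 4.

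No change of Smad7 was called in the fit without blocks, where the hairpin difference was -0.19 (95% interval -0.57 to 0.19) untreated and 0.20 (95% interval -0.21 to 0.61) with RA. Within slides the untreated difference was -0.26 to -0.14 on 4 of 4 slides. With the slide as a block it fell by 0.19 ± 0.07 (SE) in untreated sh4 (adjusted p = 0.0449), the RA change in sh4 was 0.21 (adjusted p = 0.0248) and the interaction was 0.32 (adjusted p = 0.0359). With median scaling the RA change in shCTR was -0.31 (adjusted p = 0.0467), against -0.11 (adjusted p = 0.635) with the 75th percentile.

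Id1 and Id2 were higher in sh4 than in shCTR before RA and nearly equal after it. Id1 is the BMP target most used as a readout of the pathway. The shCTR arrays had log2 levels of 2.45, 3.03, 2.72 and 2.76, and the sh4 arrays 3.44, 3.91, 3.64 and 3.50, with no overlap. After RA the levels were 4.06, 4.11, 3.90 and 3.99 for shCTR, then 4.17, 4.19 and 3.79 for sh4, which overlap. The order from the top was sh4 72 RA, shCTR 72 RA, sh4 and shCTR, and the RA groups did not differ beyond their spread. Untreated sh4 and shCTR 72 RA differed by 0.39 (adjusted p = 0.0211), although their ranges touched.

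Id1 rose by 0.88 ± 0.13 (SE) in untreated sh4, 1.84-fold (adjusted p = 0.000212, limma), and by 0.74 to 0.98 within the 4 slides. With RA the hairpin difference was 0.04 (95% interval -0.28 to 0.35). RA raised Id1 by 1.27 ± 0.13 in shCTR (adjusted p = 1.6e-06) and by 0.43 ± 0.15 in sh4 (adjusted p = 0.0211). The interaction was -0.84 (95% interval -1.27 to -0.41, adjusted p = 0.00826), and -1.02 to -0.80 within slides.

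The smaller rise of Id1 in sh4 with RA kept its call under 19 of 26 alternatives and lost it under 7. Its adjusted p was 0.0831 and 0.0846 without sh4 72 RA replicate 1 or 3, 0.0586 and 0.0534 without sh4 replicate 1 or 4, and 0.0858 without the 3 arrays rated for evaluation. With median scaling the change was 0.29 (adjusted p = 0.0844), with only the compared arrays in the fit its adjusted p was 0.0527, and in the authors' log2 values the change was 0.65 (adjusted p = 0.00124). Quantile normalisation gave the highest value, 0.70.

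Id2, which also marks early lineage choices, had the largest hairpin difference of the 9 tested genes in untreated cells. Log2 levels in shCTR were -0.28, 0.40, 0.16 and 0.26, against 1.71, 1.96, 1.64 and 1.99 for sh4. Once treated with RA, shCTR gave 2.58, 2.62, 2.25 and 2.34, and sh4 gave 2.58, 2.63 and 2.56. Every sh4 array lay above every shCTR array without RA, and the RA groups overlapped at a higher level. The order was that of Id1, and only the RA groups did not differ as neighbours.

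Id2 rose by 1.69 ± 0.14 (SE) in untreated sh4, 3.23-fold (adjusted p = 6.95e-07, limma), and by 1.48 to 1.99 within the 4 slides. With RA the hairpin difference was 0.14 (95% interval -0.18 to 0.47). RA raised Id2 by 2.31 ± 0.14 in shCTR, 4.96-fold, and by 0.76 ± 0.15 in sh4, 1.7-fold (adjusted p = 4.52e-09 and 0.000569). The interaction was -1.55 (95% interval -1.99 to -1.11, adjusted p = 0.00012), and it was negative on each of the 3 slides, from -1.99 to -1.16. Its promoter window is the one with GGCGCC, and whether that motif bears on these changes was not tested.

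Id3, which like Id1 is a direct Smad target, rose with RA in both hairpins. Untreated arrays had log2 levels of -0.67, 0.15, 0.64 and 0.58 for shCTR, then -0.39, 0.68, 1.15 and 0.75 for sh4. Treated arrays had 3.47, 3.42, 3.73 and 3.73 for shCTR, then 3.56, 3.45 and 3.26 for sh4. The untreated arrays spread over more than 1 log2 unit within each group, with slide 1 lowest in both, and the RA arrays lay close together far above them. RA raised Id3 by 3.42 ± 0.32 (SE) in shCTR, and by 2.88 ± 0.34 in sh4, 7.36-fold for the latter (adjusted p = 4.14e-07 and 6.02e-06, limma).

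The hairpin difference of Id3 was not called in either condition. It was 0.37 (95% interval -0.31 to 1.06) untreated and -0.16 (95% interval -0.90 to 0.58) with RA. Within slides the untreated difference was positive on 4 of 4 slides, from 0.17 to 0.53. With the slide as a block its adjusted p was 0.311 (limma). That block takes the same slide shift in all groups, whereas slide 1 was lowest in the untreated groups only. It therefore cannot decide on the within-slide pattern. No test between Id3 and the other Id genes was run.

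**Figure D2:**
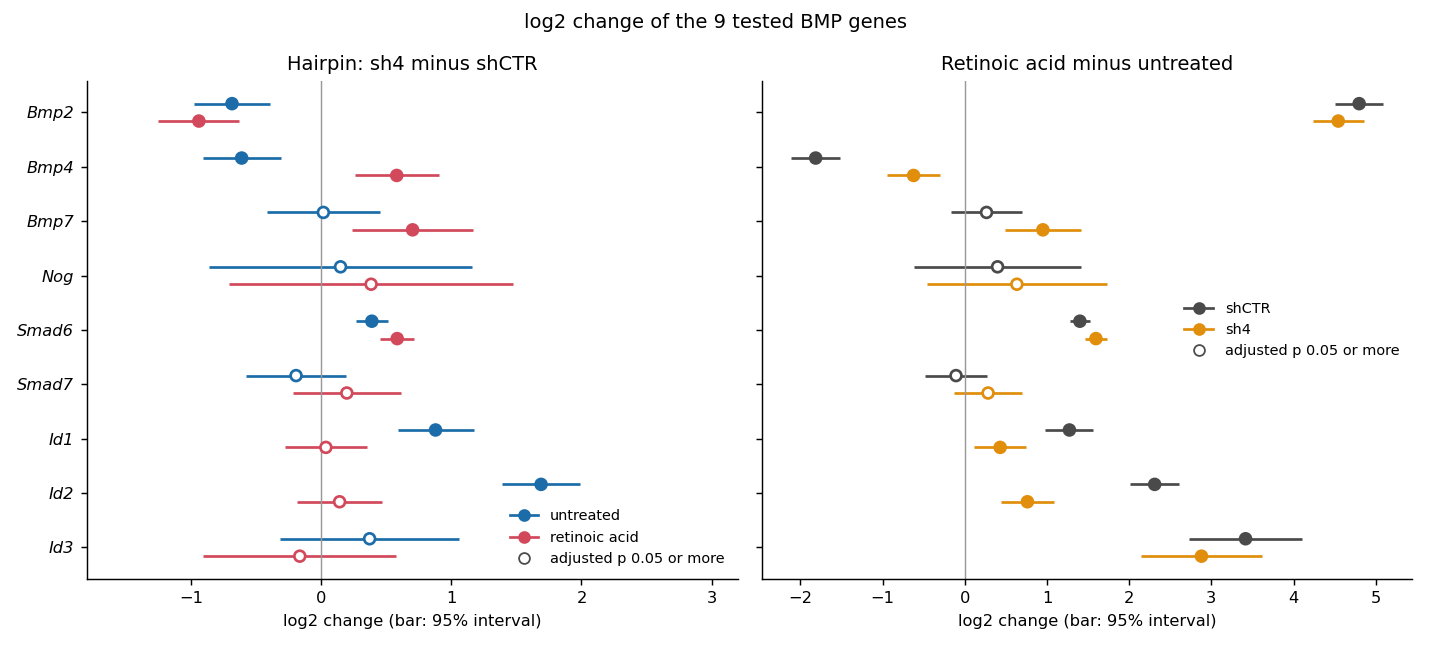
log2 change (horizontal axis, points) with its 95% interval (bars) for the 9 tested genes, for the hairpin on the left and RA on the right, with open points where the adjusted p was 0.05 or more. The hairpin points of Bmp4 lie on opposite sides of 0 (-0.61 and 0.58), and those of Id1 and Id2 are filled only without RA (0.88 and 1.69). For RA, the points of Bmp2, Id3, Id2, Smad6 and Id1 are filled and lie right of 0 in both hairpins.

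Counted over the set, 3 of the 9 tested genes rose and 2 fell in untreated sh4, where 14.4% of all 25090 genes rose and 14.1% fell. With RA, 3 were higher and 1 lower in sh4, against 10.9% and 10.3% of all genes. RA raised 5 and lowered 1 in shCTR, against 29% and 33.5% of all genes, and raised 6 and lowered 1 in sh4, against 27.1% and 31.6%. The interaction was positive for 1 and negative for 2, against 10.2% and 10.2%. The comparisons across both factors used to order the groups called 62% (shCTR 72 RA against sh4) and 60.3% (sh4 72 RA against shCTR) of all genes. Nothing is called particular to the set from these counts. With the slide as a block, 6, 4, 6, 8 and 4 of the 9 genes were called in the 5 comparisons, and 9063, 7070, 17693, 17011 and 6918 of all genes, against 5, 4, 6, 7 and 3, and 7165, 5325, 15665, 14717 and 5132, without it. Median log2 changes of the 9 genes were 0.15, 0.20, 1.27, 0.76 and 0.19 in those 5 comparisons, against 0.02, 0.04, -0.12, -0.12 and 0.01 over all genes tested. The comparisons share arrays, so their values stand side by side and are not independent.

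**Figure D3:**
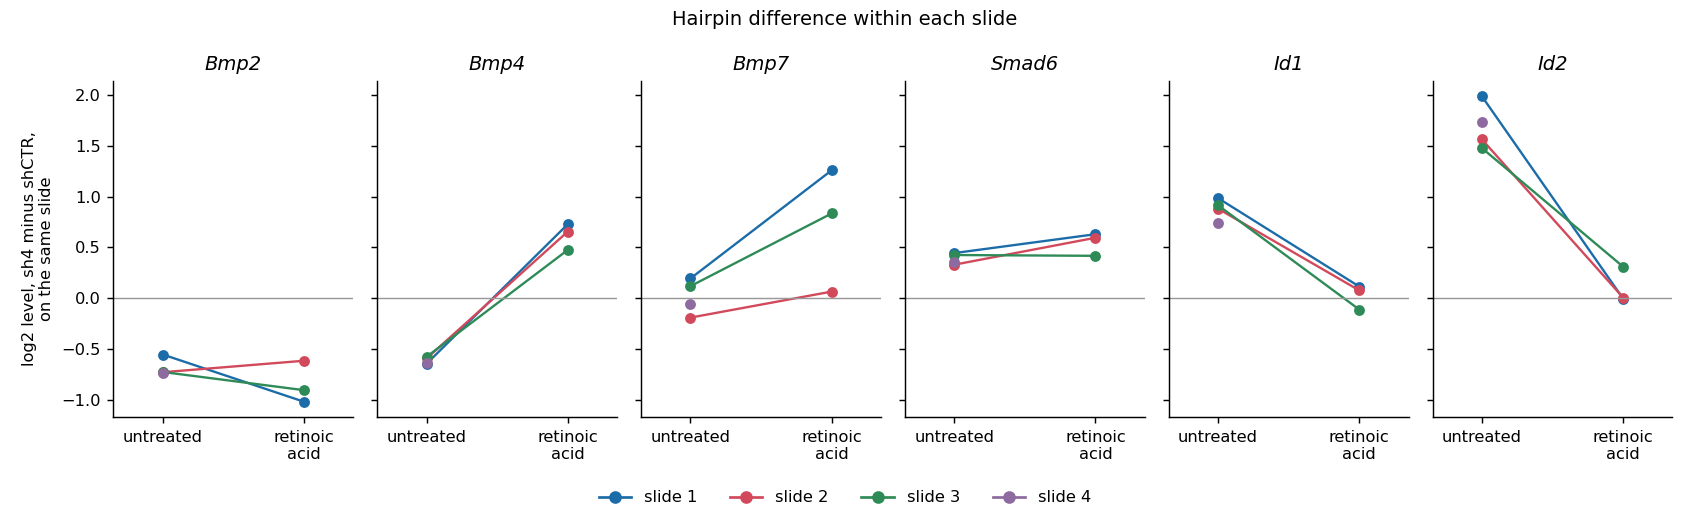
Difference in log2 level between the sh4 and shCTR arrays of the same slide (vertical axis) without and with RA, for 6 genes, 1 line a slide; slide 4 has no sh4 72 RA array. Bmp4 crosses 0 on each of the 3 slides, Id1 and Id2 drop toward 0 on each, and Bmp7 differs between slides (1.26, 0.07 and 0.83 with RA).

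The other genes of the pathway were counted from lists by role. Beside these and the marker counts below stand the shares of all 25090 genes. In untreated sh4 14.4% rose and 14.1% fell, and with RA 10.9% were higher and 10.3% lower in sh4. RA raised 29% and lowered 33.5% in shCTR, and raised 27.1% and lowered 31.6% in sh4. The interaction was positive for 10.2% and negative for 10.2%. Nothing is called particular to a list from its counts. Of the 65 changes named below, 27 moved by more than 1.5 times under some alternative, and the smallest size came from the authors' log2 values for 12, from normexp correction for 12 and from the mean of all probes of a gene for 3. Among 9 tested of 12 other BMP and GDF ligands, 1 rose and 1 fell in untreated sh4, and 4 rose and 1 fell with RA in shCTR. Bmp8b, a germ-line and extraembryonic ligand, rose by 2.15 ± 0.09 (SE) in untreated sh4 (adjusted p = 9.81e-10, limma), and Bmp6, a ligand close to Bmp5 and Bmp7, fell by 0.29 (adjusted p = 0.0131; lost with normexp correction, median scaling and the authors' values). The median change of the list was 0.14 in untreated sh4 and 0.16 with RA in shCTR. RA lowered Gdf3, a Nodal-like ligand of pluripotent cells, by 4.16 in shCTR and by 5.33 in sh4. On the processed signal, RA raised Gdf2, a ligand for endothelial receptors, at least 5.78-fold in shCTR. It raised Gdf6, a ligand of joints and eye, at least 6.38-fold in sh4. Both rose from groups not well above background. With normexp correction the fitted changes were 0.44 and 0.65 on the log2 scale, so these folds are not bounds under that correction. With RA, 1 of the 9 was higher and 3 lower in sh4, among them Bmp6 (-1.72) and Gdf2 (-1.29, which lost its call with normexp correction at -0.39). With RA in sh4, 5 rose and 1 fell, and the interaction was negative for 4 of 9 and positive for 0, with Bmp6 at -1.42. Gdf2 is counted among the 4, but with normexp correction its interaction was -0.19 (adjusted p = 0.669), and its untreated levels were not well above background. The share of all genes with a negative interaction was 10.2%. Bmp3, Bmp15 and Gdf10 did not pass the filter.

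Among 13 tested of 15 secreted antagonists and modulators, 9 rose and 0 fell with RA in shCTR, and 10 rose and 1 fell in sh4, with medians of 1.56 and 1.68. Bmper, which binds BMPs and can both block and aid them, rose by 4.45 ± 0.14 (SE) in shCTR and 3.86 ± 0.15 in sh4, and Crim1, a membrane protein that binds BMPs, rose by 3.16 in shCTR. Chrdl1, a chordin-like antagonist, rose by 2.93 in sh4, and by 0.54 with normexp correction (adjusted p = 0.0109). In untreated sh4, 3 rose and 3 fell (median 0.14), with Bmper at -1.60 and Chrdl2, another chordin-like protein, at -1.01. In the authors' log2 values these were -0.50 and -0.49, the rise of Bmper in sh4 was 1.86, and the interaction of Chrdl2 was 0.62. With RA, 2 were higher and 3 lower in sh4, with Bmper at -2.20 and Fst (follistatin, which binds activins and some BMPs) at -0.81. The interaction was positive for 1 (Chrdl2, 1.22) and negative for 2 (Fst, -1.13, among them). Bmper was called in each of the 4 comparisons of the hairpin or of RA, and Nog in none of them. Grem1 and Cer1 did not pass the filter. Of these antagonists, 7 to 9 rose in shCTR with RA over the 11 alternatives other than leaving out single arrays, with medians of 0.48 to 1.62.

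Of 5 tested of 6 ligand-processing proteases, 3 rose and 1 fell with RA in each hairpin, with medians of 1.77 in shCTR and 1.40 in sh4. Bmp1, a protease that cleaves chordin and procollagens and is no BMP ligand, rose by 3.08 ± 0.12 (SE) in shCTR with RA and by 1.97 ± 0.12 in untreated sh4 (adjusted p = 3.5e-08, limma). With RA the hairpin difference of Bmp1 was 0.29, which was not called, and its interaction was -1.68 (adjusted p = 1.57e-05). With the mean of all its probes, the Bmp1 changes were 1.55 with RA in shCTR, 1.11 untreated and -0.99 for the interaction, all past the threshold. Pcsk5, a proprotein convertase, rose by 1.91 in shCTR and 2.83 in sh4 with RA, and had an interaction of 0.92. The smallest values of Pcsk5 were 0.81 with normexp correction in shCTR, and 1.40 in sh4 and 0.55 for the interaction in the authors' log2 values. Furin, the convertase best known to cut BMP precursors, rose by 1.61 in sh4 with RA. Pcsk6, another convertase, was lower in sh4 by 0.81 untreated and by 1.10 with RA, so 2 of 5 rose and 2 fell untreated, and 2 of 5 were higher and 1 lower with RA, with Pcsk5 at 0.56 (lost under 4 alternatives). The interaction was called for 2 of 5. Tll2 did not pass the filter.

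Of 12 receptors and co-receptors, 7 rose and 2 fell with RA in each hairpin, with medians of 0.70 in shCTR and 0.85 in sh4. Tgfbr3 (betaglycan, a co-receptor) rose by 3.19 ± 0.07 (SE) in shCTR and 3.28 ± 0.08 in sh4, and Bmpr1b, a type I receptor, rose by 1.98 and 2.38. The smallest values of Bmpr1b were 0.42 with normexp correction in shCTR (adjusted p = 0.0241) and 0.80 in the authors' log2 values in sh4. In untreated sh4, 4 rose and 2 fell (median 0.15), with Tgfbr3 at -0.61 and Rgmb, a BMP co-receptor, at 0.56 (lost under 4 alternatives). With RA, 2 were higher and 1 lower in sh4, with Rgma, a related co-receptor, at 0.53 (adjusted p = 0.0582 without sh4 72 RA replicate 1, limma) and Tgfbr3 at -0.51. The interaction was called for 1 of 12, Eng (endoglin), at 0.63, a call lost under 6 alternatives.

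Of 12 Smads and their intracellular regulators, 5 rose and 3 fell with RA in each hairpin, with medians of 0.23 in shCTR and 0.20 in sh4. Smad9, which carries the BMP signal, fell by 1.12 ± 0.17 (SE) in untreated sh4 (adjusted p = 0.00023, limma), and RA raised it by 1.83 in shCTR and 3.52 in sh4, with an interaction of 1.69 (adjusted p = 0.000372). Smad9 changes were smaller under other settings: -0.32 untreated and 0.70 for the interaction in the authors' log2 values, where the rise in sh4 with RA was also smaller by more than 1.5 times, and 0.75 with RA in shCTR with normexp correction, all past the threshold. With RA it was higher in sh4 by 0.56 (adjusted p = 0.0494), a call lost under 16 of the 26 alternatives. Zeb2, a Smad-binding repressor, was higher in sh4 by 0.83 untreated and 1.05 with RA, and RA raised it by 1.88 in shCTR and 2.10 in sh4. With normexp correction the untreated value of Zeb2 was 0.32 (adjusted p = 0.049) and that of RA in shCTR 1.00. In untreated sh4, 2 rose and 2 fell, and with RA 4 were higher and 1 lower in sh4. The interaction was positive for 3 and negative for 1, Skil (a Smad co-repressor), at -0.52.

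Of 9 tested of 10 other BMP target genes, 3 rose and 1 fell in untreated sh4, with a median of 0.20. Gata3 rose by 1.94 ± 0.10 (SE) and Gata2 by 1.18 ± 0.07; both are transcription factors of trophectoderm and blood (adjusted p = 8.45e-09 and 4.65e-08, limma). With RA, 5 rose and 2 fell in shCTR and 6 rose and 1 fell in sh4 (medians 1.37 and 1.99), with Gata3 at 4.03 and 2.56, Gata2 at 2.77 in shCTR and Atoh8 at 2.30 in sh4 (0.80 in the authors' log2 values). With RA, 2 of 9 were higher in sh4 and 0 lower, Gata3 and Gata2 at 0.47 each. Their interactions were -1.47 and -0.71, the same sign as those of Id1 and Id2; 2 of 9 were negative and 1 positive, and Gata2 lost its call under 3 alternatives, while with normexp correction they were -0.91 and -0.30. Bambi did not pass the filter.

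Of the 3 E proteins that Id proteins bind, Tcf12 rose with RA by 1.02 in shCTR and 1.11 in sh4. Tcf4 was lower in untreated sh4 by 0.27 ± 0.09 (SE, adjusted p = 0.03, limma; lost under 9 alternatives) and higher in sh4 with RA by 0.58, with an interaction of 0.86 (adjusted p = 0.000329). RA raised Tcf4 by 0.96 in sh4. Thus 0 of 3 rose and 1 fell in untreated sh4, where Id1 and Id2 rose, 1 rose and 0 fell with RA in shCTR, and 2 rose and 0 fell in sh4.

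**Figure D4:**
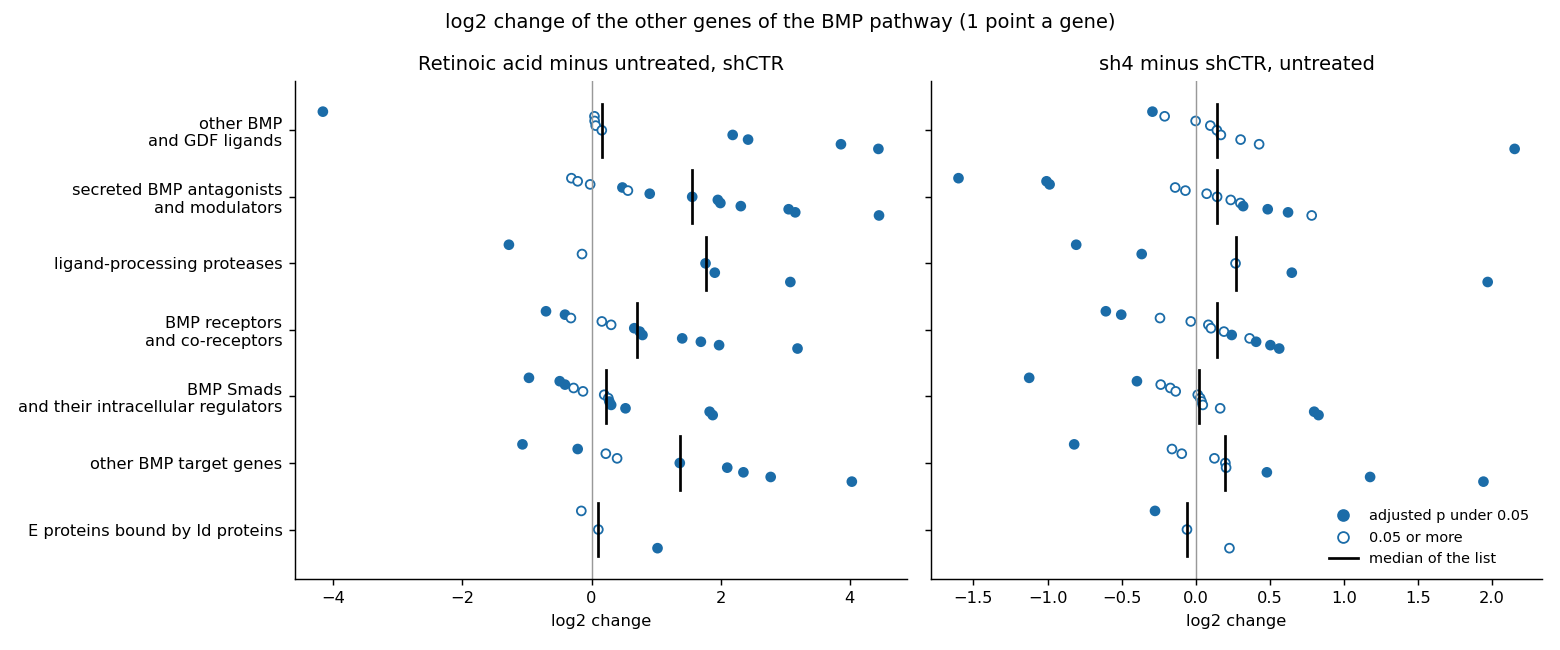
log2 change (horizontal axis) of each tested gene of the 7 pathway lists, 1 point a gene, for RA in shCTR on the left and for the hairpin in untreated cells on the right, filled where the adjusted p was under 0.05, with a line at the median of the list. With RA, 9 of the 13 antagonists and modulators are filled to the right of 0 and 0 to the left; with the hairpin, Bmp8b at 2.15, Bmp1 at 1.97 and Gata3 at 1.94 lie farthest right.

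The genes whose group means most resembled those of a member over the 4 groups were found by the root mean square difference of centred means. The search covered the tested genes whose probe matched a RefSeq transcript. For Bmp2 they were Speer4d (0.085) and Hoxb13 (0.104), over a range of 5.48 log2 units. For Bmp4 they were Hsd17b3 (0.015) and Npm3 (0.055), over 1.81. For Id1 they were Enpp5 (0.045) and Tmf1 (0.046), over 1.31, and for Id2 Cldn2 (0.062) and Fam187b (0.086), over 2.45. For Id3 they were Glt28d2 (0.048) and Gprin1 (0.088), over 3.42, and for Smad6 Speer4f1 (0.031) and Plpp3 (0.044), over 1.99. For Bmp7 they were Zfp523 (0.027) and Arhgef12 (0.044), over 0.97. With only 4 means and so many genes, close matches are easily found and are given as a description.

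Markers of other cell types also moved with the hairpin and with RA, though not all in the direction of Id1, Id2 and Gata3. Of 10 trophectoderm markers, 9 rose and 0 fell in untreated sh4, with a median of 2.49. Over the 11 alternatives other than leaving out single arrays, 8 or 9 rose and 0 fell, with medians of 1.57 to 3.03. Elf5, at 0.61, turned to -0.12 with normexp correction. The summed level of the 10 trophectoderm markers was 939% to 1124% of the 75th percentile in shCTR, 7896% to 8958% in sh4, 29984% to 32430% in shCTR 72 RA and 27303% to 33297% in sh4 72 RA. RA raised 8 and lowered 2 in shCTR, and raised 6 and lowered 4 in sh4. With RA, 3 were higher and 3 lower in sh4, and the interaction was negative for 7 of 10. Cdx2, a defining gene of that lineage, was higher by 4.16 in untreated sh4, where 9 or 10 of the 10 were detected. Gata3 stands in both that list and the BMP target list, and Eomes and Hand1 stand in both that list and the mesoderm list. The part of such cells in the Id1 and Id2 results was not tested.

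Of 10 ES cell markers, 9 fell and 1 rose with RA in each hairpin, and 3 fell and 1 rose in untreated sh4. Of 9 fibroblast markers, which feeder cells would carry, 8 rose and 1 fell with RA in each hairpin, and 4 rose and 3 fell in untreated sh4. Of those 4, Col3a1 and Lum turned to -0.07 and -0.06 with normexp correction. Of the 9, 4 or 5 were detected on each shCTR array, 6 to 8 on each sh4 array and 9 on each RA array. The filter could thus keep a marker only through the groups where it was high. With only probes well above background on all arrays, 4 were tested, and 3 rose and 1 fell with RA in each hairpin. The summed level of the 9 fibroblast markers was 250% to 286% in shCTR, 102% to 115% in sh4, 708% to 875% in shCTR 72 RA and 918% to 945% in sh4 72 RA. Of 9 mesoderm and primitive streak markers, 3 rose and 3 fell in untreated sh4 and 4 rose and 3 fell with RA in shCTR. Of 10 neural markers, 4 rose and 2 fell in both of those comparisons. Mixl1 and Fap did not pass the filter. Summed levels of the mesoderm list were 144% to 171%, 137% to 225%, 304% to 360% and 185% to 257% in shCTR, sh4, shCTR 72 RA and sh4 72 RA, and of the neural list 612% to 778%, 670% to 802%, 621% to 666% and 633% to 765%. The part of such cells in the changes of the BMP genes was not tested.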

How the data were processed

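The deposited scanner files hold spot intensities of 15 arrays. Agilent software (Feature Extraction 10.7.3.1) took off a spatial background and removed a trend across the array, per the file headers, without scaling arrays to each other. The authors' deposited value table holds log2 values by a method that the labels do not state; values recomputed from mean spot brightness by normexp correction (offset 50), then quantile normalisation, differed from them by a median of 3.4e-10. It served as an alternative.

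From 43020 non-control spots, marked outlier spots were dropped, copies averaged on the log2 scale, and the 75th percentile over 39312 probes subtracted. Kept probes were marked well above background on 3 or more arrays of a group, and the brightest per gene name was used. No spot was saturated (0 spots), and the number of arrays limits the precision. The 4 groups were fitted with limma 3.58.1 (R 4.3.3, with the package data.table, version 1.17.8), two-sided, without blocks, after the code was tested on simulated data. Alternatives changed the background correction, scaling, source of values, filter, probes, blocks and arrays; leaving out the 3 arrays rated for evaluation was added after seeing the data.

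A fold written "at least" sets the dim group to the lowest signal well above background on each array, and holds for the processed signal only. Its adjusted p is that of the fitted change. The same floor was used for Bmp5, but not every RA array was well above background there. Genes named beside the 10 members were, in each pathway list and comparison, the 2 called genes with the largest change, those dim or defining a marker list, and the 2 genes most like each member; values of a named gene in other comparisons were added. The members and lists were chosen with earlier results of these data known. Promoters came from RefSeq (GRCm38.p6), probe positions from the file headers (mm9).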

Additional observations from a re-analysis of the deposited data

Results flagged for a closer look

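The hairpin difference depended on RA for 3 of the 9 tested genes, by limma's test of the interaction with Benjamini-Hochberg adjustment over all genes, of which 10.2% had a positive and 10.2% a negative interaction. The interaction was -1.55 for Id2 (adjusted p = 0.00012) and -0.84 for Id1 (adjusted p = 0.00826), each negative on 3 of 3 slides. For Bmp4 it was 1.19 (adjusted p = 0.000897), positive on 3 of 3 slides. Of the groups of 4 arrays, the Bmp5 level in sh4 replicate 4, at -8.51, stood apart from the other 3, at -9.71 to -9.54; the probe was not well above background on any of them, and chance flags about 1 in 20 groups.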

How the results depend on the processing

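Of 647 recomputed values of changes called among the 9 genes, 626 stayed past the threshold in the same direction and 21 lost the call; of 514 recomputed values of changes not called, 487 stayed so, 9 gained a call and 18 turned sign. Genes called in untreated sh4 numbered 7165, and 4639 with normexp correction. For the hairpin with RA they numbered 5325, then 3392 with normexp and 3299 with median scaling, and for the interaction 5132, 3048 and 2976. Of the 9 genes, 4 were called for the hairpin with RA, 2 with median scaling, 2 without the 3 arrays rated for evaluation, and 2 to 4 leaving out single arrays.

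Values that turned sign were near 0 and not called. Nog untreated was -0.000274 with normexp, -0.0757 without the rated arrays and -0.137 to 0.515 leaving out single arrays; its interaction was -0.131 to 0.668. Bmp7 untreated was -0.0188 with median scaling, -0.0339 without the rated arrays and -0.0614 to 0.0766 leaving out single arrays. Id1 with RA was -0.0226 with normexp, -0.00887 in the authors' log2 values, -0.0242 without the rated arrays and -0.0332 to 0.168 leaving out single arrays. Smad7 with RA in shCTR was -0.249 to 0.00639. The causes were not tested. The median change of all genes with RA in shCTR was -0.12, and -0.33 with median scaling and -0.23 with normexp. Among 65 named pathway results, 10 lost a call under some alternative and 0 turned sign. Over all 121 pathway and marker entries, 53 interactions were called; normexp lost 16 and turned the sign of 5 (2 called in reverse), and the authors' values lost 9 and turned 5 (3 in reverse), with every sign turn in a marker list; of the 18 called in the 63 pathway genes, 0 turned.

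Replicate number matched the slide on all arrays but sh4 72 RA replicates 3 and 4. Pairing by number and pairing by slide could thus mostly not be told apart. Deviations of arrays with the same number correlated at -0.533 to 0.578 (21 pairs), and 10 of 15 arrays correlated best with their own number. Arrays of 1 slide correlated at 0.115 to 0.607 (21 pairs). The 6 pairs with the same number on other slides correlated at -0.533 to 0.558. With the replicate block, 8158, 6297, 16731, 15620 and 6005 genes were called in the 5 comparisons, and 5, 3, 6, 8 and 4 of the 9; Bmp7 with RA became 0.68 (adjusted p = 0.0636, limma), and Smad7 gained calls with RA in sh4 (0.38, adjusted p = 0.0117) and in the interaction (0.49, adjusted p = 0.0388).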
